A study of Mus musculus with 6 samples.

Results

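The genes described here are 9 mast cell genes among 21671 named genes in 6 mouse tumour libraries: the granule proteases Mcpt4, Cma1, Tpsb2 and Cpa3, the IgE receptor subunits Fcer1a and Ms4a2, the growth factor receptor Kit with its ligand Kitl, and the histamine-forming enzyme Hdc. They were taken by gene symbol and all 9 were found. The set had been selected on expression values in these same libraries, so fitted differences, intervals and calls are given for them as a description only and are no independent evidence. The libraries came from subcutaneous tumours that grew from transformed hepatoblasts in CD1 nude mice (strain label "CD1 nude ho"), a strain that lacks a thymus. All animals received cells carrying TtRMPVIR shST18, a vector in which doxycycline turns on a hairpin RNA directed at St18. The 3 untreated libraries have the genotype label wild type. The 3 doxycycline libraries have the label ST18 knockdown and were taken 4 h after oral gavage with 300 µl of a 200 mg/ml solution. Drug, gavage and hairpin cannot be told apart, since no animal had the drug without the hairpin. For the age of the animals and the number of cell clones, the sources used here give nothing. Nothing in the labels says that each library is a separate animal, and the errors below measure the spread between libraries only.

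Mast cells are tissue-resident cells of the blood lineage, common in skin and around vessels. They depend on KIT, a receptor tyrosine kinase at their surface, and on its ligand stem cell factor, which stromal cells make and which Kitl encodes. They store proteases and histamine in granules bound to proteoglycan, and release them when antigen crosslinks IgE on the high-affinity receptor FceRI. In the mouse, Mcpt4, Cma1, Tpsb2 and Cpa3 mark the connective tissue type of mast cell, while Mcpt1 and Mcpt2 are known from the mucosal type. Kit and Kitl are also made by other cells, tumour and stromal cells included, and Hdc by other myeloid cells.

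The proteases, Fcer1a and Hdc are shown with the DNA around their start sites, because the first group and Hdc lay on opposite sides of the comparison. RefSeq promoter windows (GRCm38.p6, 250 bases before to 50 after the start) were found for 8 of the 9 genes, Tpsb2 being the one without an entry. Capitals mark GATAA, the core that GATA factors bind, and the E-boxes CACGTG and CATGTG, which MITF binds, both searched on both strands. No marked motifs overlapped.

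Mcpt4, chr14:56062261-56062560, minus strand: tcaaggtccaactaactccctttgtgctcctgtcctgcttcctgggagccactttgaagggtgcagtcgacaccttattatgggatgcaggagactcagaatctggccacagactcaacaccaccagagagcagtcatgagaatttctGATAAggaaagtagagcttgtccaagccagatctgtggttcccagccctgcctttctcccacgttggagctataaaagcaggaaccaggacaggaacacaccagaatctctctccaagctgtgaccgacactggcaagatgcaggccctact
Cma1, chr14:55944626-55944925, minus strand: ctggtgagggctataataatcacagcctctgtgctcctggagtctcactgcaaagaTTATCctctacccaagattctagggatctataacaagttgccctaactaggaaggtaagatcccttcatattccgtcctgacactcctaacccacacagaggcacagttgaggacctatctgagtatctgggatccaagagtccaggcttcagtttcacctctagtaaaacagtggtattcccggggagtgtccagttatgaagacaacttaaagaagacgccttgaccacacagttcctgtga
Cpa3, chr3:20242132-20242431, minus strand: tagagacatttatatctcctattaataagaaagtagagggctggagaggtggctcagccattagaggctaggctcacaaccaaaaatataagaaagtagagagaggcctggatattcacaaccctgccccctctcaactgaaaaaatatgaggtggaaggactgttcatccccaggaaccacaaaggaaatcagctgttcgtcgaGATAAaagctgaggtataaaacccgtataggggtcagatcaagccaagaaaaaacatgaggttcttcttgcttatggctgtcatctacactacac
Fcer1a, chr1:173227180-173227479, minus strand: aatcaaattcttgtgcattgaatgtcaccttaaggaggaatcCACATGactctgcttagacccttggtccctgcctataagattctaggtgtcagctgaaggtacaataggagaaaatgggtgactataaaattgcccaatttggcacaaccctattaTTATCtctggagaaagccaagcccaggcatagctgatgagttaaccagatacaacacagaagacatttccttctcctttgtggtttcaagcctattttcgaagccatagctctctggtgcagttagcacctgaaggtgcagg
Hdc, chr2:126618629-126618928, minus strand: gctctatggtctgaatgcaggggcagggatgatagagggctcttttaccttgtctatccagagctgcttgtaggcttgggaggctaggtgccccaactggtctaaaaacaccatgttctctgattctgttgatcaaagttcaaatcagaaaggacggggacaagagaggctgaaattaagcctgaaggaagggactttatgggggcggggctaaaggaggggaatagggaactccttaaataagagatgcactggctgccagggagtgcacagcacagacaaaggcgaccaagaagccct

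GATAA was present once each in the windows of Mcpt4 (102 bases before the start), Cma1 (194 bases before), Cpa3 (45 bases before) and Fcer1a (92 bases before). The window of Ms4a2, not printed, held it 3 times. It was not found in the windows of Hdc, Kit and Kitl. Of all 32851 promoter windows of this length, 25.4% held GATAA and 20.4% held 1 of the E-boxes. Among the members, Fcer1a alone had an E-box, 208 bases before the start. These matches describe the letters only, and no binding was measured. The printed windows were picked by direction in the contrast that selected the members, so nothing about direction is read from the motifs.

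Each library held between 12090309 and 16169043 counts. The mast cell label was set beside the defining markers, given here as counts and further below as a list sum that overlapped between the groups. Protease transcripts were present in every library, with 6 to 383 counts for the 4 proteases together, while Ms4a2, the receptor's beta subunit, had at most 4 counts in any library. St18, the hairpin's target, had 12, 23 and 19 counts untreated and 34, 12 and 61 after doxycycline. Scaled to library size, doxycycline replicates 1 and 3 lay above all untreated libraries and doxycycline replicate 2 below all of them. The fitted log2 fold change was 1.03 (SE 0.55, edgeR quasi-likelihood test, adjusted p = 0.298), so its direction is not settled. A lower St18 level was thus not shown for the libraries labelled ST18 knockdown as a group. The directions below are between libraries labelled in this way. Keratin genes of skin set 2 libraries apart: the 7 skin markers summed to 105 CPM (counts per 1000000 counts of the library, scaled by trimmed mean normalisation) in untreated replicate 2 and 123 CPM in doxycycline replicate 1, against 7.83 to 11.4 CPM in the other 4. Fitted differences of the members without these 2 libraries stand beside their main values.

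All 4 granule proteases had more transcripts in each doxycycline library than in any untreated library. In bulk tissue a larger number of mast cells and more RNA per mast cell cannot be told apart. Mcpt4 encodes a chymase, a chymotrypsin-like protease of the granule. Untreated replicates 1 to 3 had 8, 7 and 1 counts, and doxycycline replicates 1 to 3 had 71, 40 and 38. Doxycycline replicate 1 was highest and untreated replicate 3 had a single read. Mean levels were 0.371 ± 0.275 and 3.69 ± 1.96 CPM (SD, n = 3 each), a fitted 9.80-fold difference (log2 fold change 3.29, SE 0.66, 95% interval 1.80 to 4.79). Without the keratin-rich libraries the log2 fold change was 2.92.

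Cma1, the other chymase, had 31, 10 and 4 untreated counts and 92, 44 and 46 after doxycycline. Untreated replicate 1 at 2.34 CPM came close to doxycycline replicate 3 at 2.88 CPM. Its log2 fold change was 2.08 (SE 0.73, 95% interval 0.42 to 3.74), from 1.08 ± 1.11 to 4.535 ± 2.745 CPM. The difference depended on single libraries, with a log2 fold change of 3.29 without untreated replicate 1, 1.47 without doxycycline replicate 1 and 1.17 without both keratin-rich libraries.

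Tpsb2 encodes a tryptase, a trypsin-like protease stored as a tetramer. It had 20, 15 and 0 counts in the untreated libraries and 81, 47 and 42 in the doxycycline libraries. The count of 0 in untreated replicate 3 allows a level of up to 0.202 CPM, the level of 3 counts. This made a log2 fold change of 2.36 with an SE of 0.84 (95% interval 0.43 to 4.29), from 0.818 ± 0.763 to 4.21 ± 2.25 CPM. It was 3.11 without untreated replicate 1, 1.77 without untreated replicate 3 and 1.96 without the keratin-rich libraries.

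Cpa3, the mast cell carboxypeptidase, had the most reads of the proteases, with 41, 24 and 1 untreated counts and 139, 58 and 77 after doxycycline. The untreated libraries ran from 0.0674 CPM in replicate 3 to 3.099 CPM in replicate 1 and the doxycycline libraries from 3.98 to 11.6 CPM, so the gap between the groups was small beside the range within each. Its log2 fold change was 2.13 (SE 0.85, 95% interval 0.20 to 4.06), and 3.08 without untreated replicate 1, 1.51 without doxycycline replicate 1 and 1.47 without the keratin-rich libraries. Of the 50-base stretches of the longest transcript, 5.48% in Mcpt4 (mostly shared with Cma2) and 5.38% in Cma1 (shared with the predicted gene Gm48934) occur in another gene's transcript, while Tpsb2 and Cpa3 share none. Cma2 itself had at most 2 counts in any library.

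**Figure D1:**
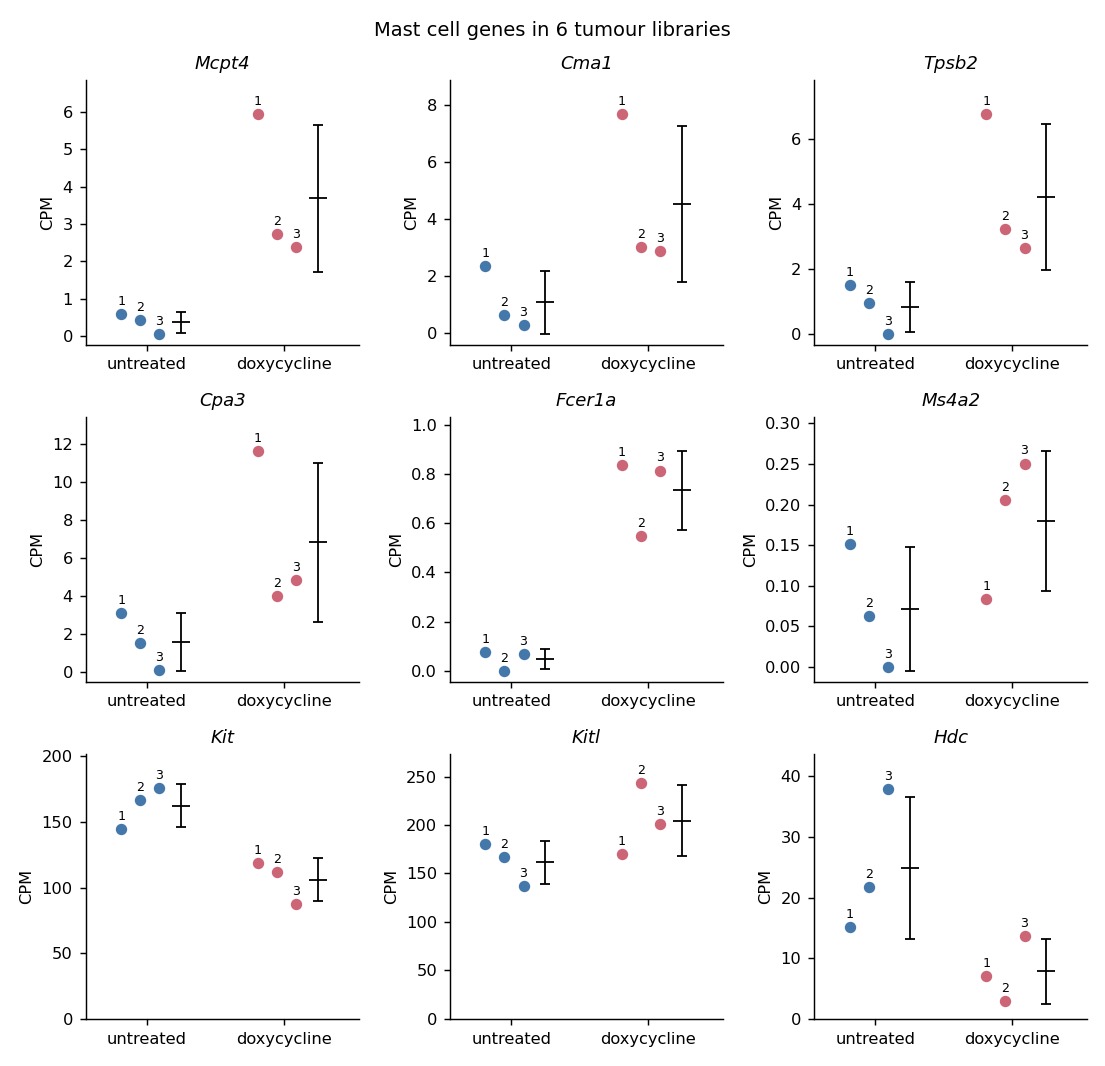
Level of each of the 9 genes in CPM (vertical axes, linear, each with its own scale) in the 3 untreated (blue) and 3 doxycycline (red) libraries; digits are replicate numbers, and black bars give the mean and SD. The 4 proteases, Fcer1a, Kit and Hdc separate the groups, with Kit and Hdc lower after doxycycline, whereas Kitl and Ms4a2 overlap.

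The libraries differed widely within each group, and the proteases did so in parallel. Their summed level was 7.56, 3.52 and 0.405 CPM for untreated replicates 1 to 3, and 32.1, 13.0 and 12.7 CPM for doxycycline replicates 1 to 3. Untreated replicate 3 held almost none of the 4 transcripts, and doxycycline replicate 1 held over 2 times the level of either other doxycycline library. The ratio of the group means was 5.03. It was 9.82 without untreated replicate 1, 3.48 without untreated replicate 3, 3.36 without doxycycline replicate 1 and 3.23 without both keratin-rich libraries. Where reads allowed a comparison, Cpa3 made up 41.0% and 42.9% of the protease counts in untreated replicates 1 and 2. In the doxycycline libraries its share was 36.3%, 30.7% and 37.9%. Mcpt4 had a lower share untreated, at 0.195 and 0.292 counts per Cpa3 count against 0.494 to 0.690 after doxycycline.

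The receptor for IgE was close to the limit of detection. Fcer1a, the IgE-binding alpha subunit, had 1, 0 and 1 untreated counts and 10, 8 and 13 after doxycycline. The doxycycline libraries, at 0.837, 0.549 and 0.814 CPM, did not overlap the untreated ones. On pooled reads the ratio was 16.05 (95% counting interval 4.08 to 138), which leaves out the spread between libraries. Without both keratin-rich libraries it was 9.65. Ms4a2 had 2, 1 and 0 counts untreated and 1, 3 and 4 after doxycycline, a ratio of 2.76 (interval 0.663 to 16.2), and a difference was not detectable at this depth. Neither gene passed the filter on low counts. The third subunit, Fcer1g, which macrophages and other myeloid cells share, was far more abundant at 11.6 ± 1.74 and 15.0 ± 1.92 CPM (log2 fold change 0.37, edgeR adjusted p = 0.333).

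Kit, the receptor for stem cell factor, went the other way from the proteases. Untreated replicates 1 to 3 had 1909, 2659 and 2611 counts, and doxycycline replicates 1 to 3 had 1416, 1634 and 1399. In CPM the untreated libraries lay at 144, 167 and 176 and the doxycycline libraries at 119, 112 and 87.6, with no overlap. The group means were 162.5 ± 16.4 and 106 ± 16.3 CPM (log2 fold change -0.62, SE 0.13, 95% interval -0.90 to -0.33), and the log2 fold change was -0.69 without the keratin-rich libraries. Untreated replicate 3, which had the lowest protease level, had the highest Kit level.

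Kitl, the ligand, overlapped between the groups, at 181, 167 and 137 CPM untreated and 170, 243 and 201 CPM after doxycycline. Doxycycline replicate 1 lay inside the untreated range. The fitted log2 difference was 0.34 (SE 0.14, 95% interval 0.01 to 0.67), and 0.47 without the keratin-rich libraries.

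Hdc, which makes histamine from histidine, was lower after doxycycline although the proteases stored with histamine were higher. Untreated replicates 1 to 3 lay at 15.1, 21.7 and 37.9 CPM, and doxycycline replicates 1 to 3 at 7.03, 2.88 and 13.6 CPM. The highest doxycycline value lay just under the lowest untreated value. The fitted log2 difference was -1.66 (SE 0.53, 95% interval -2.87 to -0.45). It was -2.34 without doxycycline replicate 3, -1.23 without untreated replicate 3 and -1.70 without the keratin-rich libraries. Untreated replicate 3, with 6 protease counts, had 562 Hdc counts, the most of any library.

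Of 7 neutrophil markers tested, 1 passed, and it was lower after doxycycline, where 2.18% of all genes were called lower. This was Csf3r, the receptor for the neutrophil growth factor G-CSF, with 37.2, 34.9 and 60.7 CPM untreated and 13.6, 8.44 and 23.2 CPM after doxycycline (log2 fold change -1.55, edgeR adjusted p = 0.0486). That call was lost without untreated replicate 1, 2 or 3, without doxycycline replicate 1 and without both keratin-rich libraries (adjusted p 0.119 to 0.246). With all libraries it was also lost in limma-voom (adjusted p = 0.0545) and in edgeR without the filter on low counts (adjusted p = 0.0939). As with Hdc, replicate 3 was the highest library of each group. For Cxcr2 and Ngp doxycycline replicate 1 was instead highest in its group, at 22.0 and 0.754 CPM (replicate 3: 21.3 and 0.376 CPM). The fitted log2 differences of all 7 were below 0, with a median of -1.42, and the groups overlapped for Mmp8 and Ngp. The neutrophil sum was 99.8 to 159 CPM untreated and 42.0 to 77.5 CPM after doxycycline. S100a8 (-1.42, adjusted p = 0.0529) and S100a9 (-1.21, adjusted p = 0.0754), which encode the calprotectin subunits, did not pass in edgeR. Basophils also use Hdc: their markers Cd200r3, Mcpt8 and Prss34 had at most 2.82, 1.57 and 0.313 CPM in any library, and Cd200r3, the 1 tested, had means of 1.32 ± 0.562 and 1.45 ± 1.19 CPM (log2 fold change 0.15, edgeR adjusted p = 0.909). The part of neutrophil content in the Hdc difference was not tested.

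**Figure D2:**
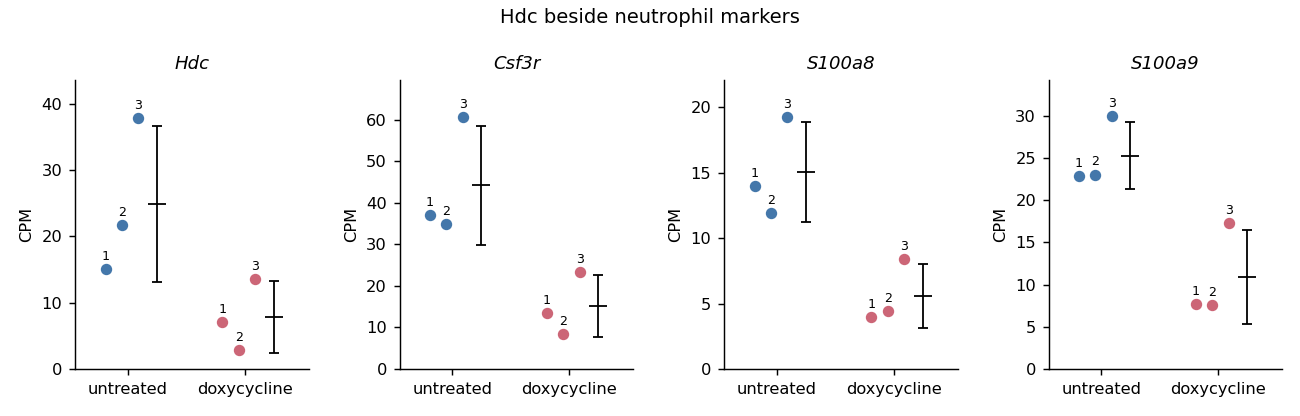
Hdc and the neutrophil markers Csf3r, S100a8 and S100a9 in CPM (linear axes from 0) in the 3 untreated (blue) and 3 doxycycline (red) libraries, with replicate numbers and the mean and SD in black. All 4 genes have no overlap between the groups, and replicate 3 is the highest library of each group in every panel. That order does not hold for the neutrophil markers Cxcr2 and Ngp, not shown, whose highest doxycycline library was replicate 1.

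Of the 7 members that passed the filter, the fit across all genes (edgeR quasi-likelihood test, adjusted p under 0.05) called Mcpt4 higher and Kit lower. Over all 14809 genes tested the share called was 5.02%, with 2.84% higher and 2.18% lower. The groups did not overlap for 7 of the 9 members, 5 higher and 2 lower, and for 6 of the 7 tested, against 29.6% of all genes tested. Since the same contrast was used to choose the members, nothing is read from these counts. Each of the 2 calls was lost without untreated replicate 1, 2 or 3, without doxycycline replicate 3 and without both keratin-rich libraries, and that of Mcpt4 also without doxycycline replicate 1. Calls over all genes fell as well, from 744 to 23, 52 and 27 without untreated replicates 1, 2 and 3 and to 0 without the keratin-rich libraries, while the log2 fold changes ran from 2.78 to 3.79 for Mcpt4 and from -0.70 to -0.49 for Kit over the alternatives. No member changed direction in any alternative that gave it a value. Where the groups do not overlap, leaving out libraries can hardly change the sign, so nothing is read from this either.

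**Figure D3:**
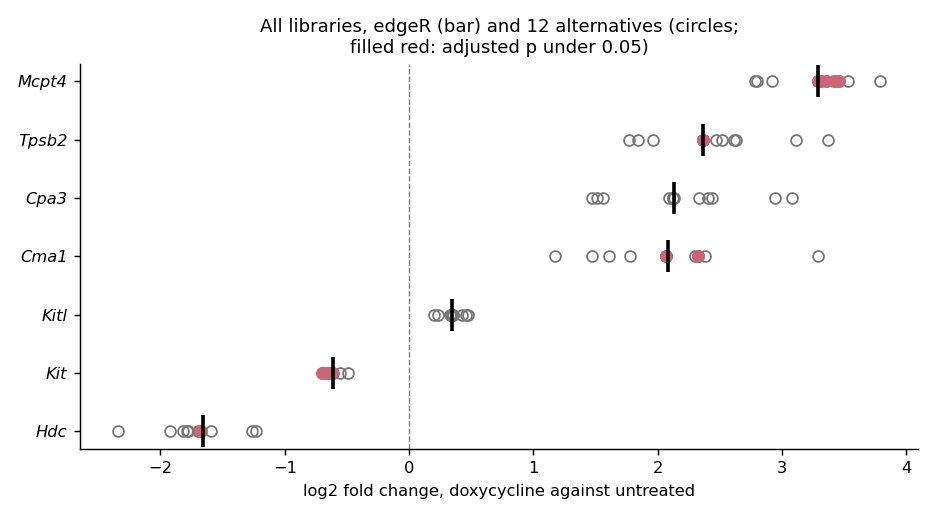
Log2 fold change (horizontal axis) of the 7 members that passed the filter, with all libraries in edgeR (black bar) and under 12 alternatives (circles, filled red where the adjusted p is under 0.05). No member crosses 0, which is no test of a member whose groups do not overlap when libraries are left out. The size for Cma1 runs from 1.17 to 3.29 and for Cpa3 from 1.47 to 3.08.

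Levels of the 9 genes were compared per kilobase of exon. In the untreated libraries Kitl was highest at 27.3 ± 3.78 CPM per kilobase, followed by Kit at 18.2 ± 1.84 and Hdc at 3.90 ± 1.84, and these 3 ranges did not overlap. Cpa3 (1.03, range 0.0445 to 2.04), Cma1 (0.991 ± 1.02), Tpsb2 (0.513 ± 0.479) and Mcpt4 (0.334 ± 0.248) came next, and neighbours among them did not differ beyond their spread. Fcer1a (0.0478 ± 0.0416) and Ms4a2 (0.0254 ± 0.0270) had the lowest means and overlapped with each other and with the lowest protease values. After doxycycline Kitl (34.6 ± 6.22) and Kit (11.9 ± 1.84) stayed on top, while Cpa3 (4.49 ± 2.77), Cma1 (4.16 ± 2.52), Mcpt4 (3.33 ± 1.77) and Tpsb2 (2.64 ± 1.41) all overlapped, and Hdc (1.23 ± 0.845) had a lower mean but overlapped with Tpsb2. Fcer1a (0.735 ± 0.160) and Ms4a2 (0.0640 ± 0.0307) lay below the proteases, and Fcer1a overlapped with Hdc. In each group the lowest Kit library lay above the highest library of any protease. Of the markers of other cells known for Kit, the melanocyte list summed to 7.10 to 12.7 CPM. Tyr made up most of it, at 5.63 ± 0.263 and 6.29 ± 1.54 CPM, followed by Pmel at 1.44 ± 0.221 and 2.12 ± 0.887 CPM, while Mlana, Tyrp1 and Dct had means under 0.4 CPM in both groups. Hepatoblast and hepatocyte markers summed to 128 to 224 CPM with 0 of 7 tested called. Krt18, Krt8 and Sox9 made up most of this sum. Of the others, Dlk1 had means of 11.5 ± 2.03 and 9.14 ± 4.07 CPM and Afp 1.01 ± 0.363 and 0.643 ± 0.204 CPM. Alb and Ttr had at most 2 and 1 counts in any library. The cell source of Kit was not tested.

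No gene outside the members passed the test in the lists of granule and identity genes of mast cells. Tpsab1, the second tryptase gene, had no entry under that symbol among the named genes, so its level is not known here. Mcpt2, a chymase-family gene of the mucosal type, had 20, 0 and 1 untreated counts and 85, 22 and 24 after doxycycline. Untreated replicate 1 and doxycycline replicate 2 were both at 1.51 CPM and doxycycline replicate 3 just below, so the groups overlapped (log2 fold change 2.71, SE 1.15, edgeR adjusted p = 0.198). Its log2 fold change was 6.35 without untreated replicate 1, 1.57 without doxycycline replicate 1 and 0.94 without the keratin-rich libraries. The mucosal genes Mcpt1 and Mcpt9 had at most 3 and 2 counts in any library.

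The Mrgpr receptors mark connective tissue mast cells, and MRGPRB2 triggers degranulation by basic peptides and drugs without IgE. Mrgprb2 had no count in any untreated library and 4, 7 and 6 counts after doxycycline. The untreated counts of 0 allow levels of up to 0.188 to 0.227 CPM, the level of 3 counts in those libraries, and the doxycycline libraries lay at 0.335, 0.480 and 0.376 CPM. Mrgprb1 had 1.08 ± 0.272 CPM untreated and 2.16 ± 0.534 CPM after doxycycline, with no overlap (log2 fold change 0.99, SE 0.39, edgeR adjusted p = 0.166). Il1rl1, the IL-33 receptor ST2, also had no overlap, at 2.76 to 4.16 and 4.26 to 7.52 CPM (0.86, adjusted p = 0.163). The transcription factor gene Gata2, of the same identity list, had no overlap either but was lower after doxycycline. It lay at 95.8 to 98.8 CPM untreated and 58.3 to 94.5 CPM after doxycycline. Hpgds, which makes prostaglandin D2, was at 15.4 ± 2.76 and 24.6 ± 4.68 CPM (0.68, adjusted p = 0.110). Slc18a2, the vesicular monoamine transporter that loads histamine into granules, overlapped between the groups at 26.1 ± 4.02 and 33.98 ± 9.43 CPM (0.38, adjusted p = 0.325). The whole list of connective tissue mast cell markers, proteases and Hdc included, summed to 49.0 to 62.4 CPM untreated. After doxycycline it summed to 45.7 to 87.3 CPM. Those sums overlapped, with doxycycline replicate 2 below every untreated library. Hdc and Slc18a2 made up most of each sum.

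**Figure D4:**
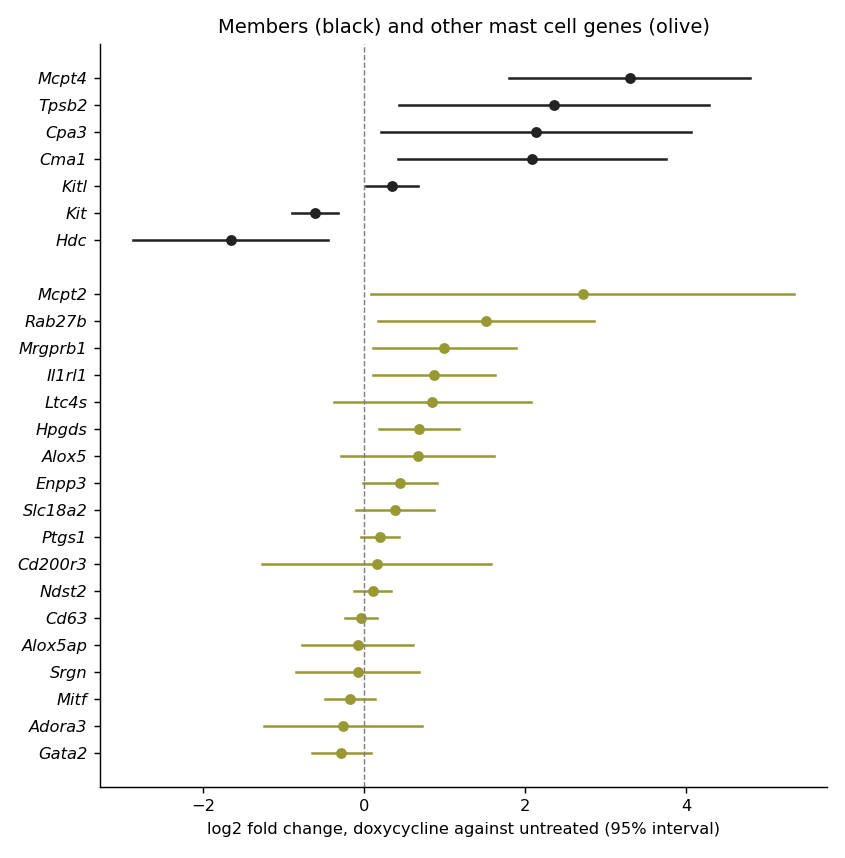
Log2 fold change, doxycycline against untreated, with its 95% interval (horizontal axis) for the 7 members that passed the filter (black) and the 18 tested genes of the granule and identity lists (olive). The proteases sit to the right at 2.08 to 3.29, Kit and Hdc to the left at -0.62 and -1.66, and no olive gene passed the adjusted threshold.

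Across 6 lists of 86 genes outside the members, 85 were in the table and 63 were tested. Of these 6 were called (9.52%, against 5.02% of all genes), 3 higher and 3 lower, and 20 of the 63 had an unadjusted p under 0.05, against 23.9% of all genes. The median log2 fold change was 0.05, against 0.01 over all genes. In the granule list (Mcpt2, the core protein gene of granule proteoglycan Srgn, Slc18a2 and Ndst2) 0 of 4 tested passed, with a median of 0.24. The identity list had 0 of 14, with a median of 0.32. The transcription factor genes Gata2 (96.9 ± 1.63 and 79.5 ± 18.9 CPM, -0.28, adjusted p = 0.327) and Mitf (-0.18, adjusted p = 0.459), both needed for mast cell development, were abundant and did not pass. None of 19 FceRI signalling genes passed (median 0.05), among them the kinases Lyn (0.11, adjusted p = 0.680) and Syk (0.34, adjusted p = 0.428). Of 3 histamine handling genes tested none passed (median 0.25).

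Genes downstream of KIT and the mast cell attractants held all 6 calls. Of 14 KIT signalling genes (median -0.01), Pik3r1, the regulatory subunit of phosphoinositide 3-kinase, rose by 0.37 on the log2 scale, from 168 ± 15.5 to 217 ± 10.6 CPM (edgeR adjusted p = 0.0466). Sh2b3, which encodes the adaptor LNK that dampens KIT signals, fell from 111 ± 6.36 to 80.5 ± 8.40 CPM (-0.47, adjusted p = 0.0393). Both are expressed in many cell types.

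Among 9 growth factors and attractants (median -0.18), 2 rose and 2 fell. Il33, an alarmin that activates mast cells through ST2, rose from 32.6 ± 6.90 to 61.3 ± 15.1 CPM (0.91, edgeR adjusted p = 0.0466). The chemokine Cxcl12 rose by 0.83 (adjusted p = 0.0496). Ccl2, a monocyte and mast cell attractant, fell from 34.9 ± 1.85 to 20.5 ± 4.23 CPM (-0.76, adjusted p = 0.0454), and the vascular growth factor Vegfa fell from 219 ± 10.2 to 134 ± 32.0 CPM (-0.71, adjusted p = 0.0446). All 6 calls were lost without any 1 of the untreated libraries, without doxycycline replicate 1 and without the keratin-rich libraries, and all but that of Ccl2 without doxycycline replicate 3. The T cell and myeloid cytokine genes Il3, Il4 and Il9 had at most 3 counts in any library.

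Several lists of markers of other host cells also held genes that were higher after doxycycline. Fibroblast markers summed to 1067 to 1089 CPM untreated and 1488 to 1761 CPM after doxycycline (5 of 11 tested higher, none lower, median 1.36 on the log2 scale). Macrophage markers had 372 to 451 and 484 to 701 CPM (3 of 10 higher), endothelial markers 360 to 394 and 447 to 483 CPM (2 of 9 higher), and skeletal muscle markers 86.5 to 222 and 407 to 2732 CPM (8 of 15 higher), with none lower in any of these lists. Over all genes 2.84% were called higher. By edgeR the collagen-binding proteoglycan genes Lum and Dcn had log2 fold changes of 2.27 and 2.22 (adjusted p = 0.00174 and 0.00519), Postn 2.88 and Dpt 0.72. The macrophage receptors Mrc1 and Cd163 had 0.95 and 0.69, Emr1 had 0.82, the endothelial genes Tek and Cdh5 had 1.31 and 0.51, and the muscle genes Myh4, Myh2, Pvalb and Myl1 had 7.63, 4.68, 5.60 and 4.34. Each of these 13 calls was lost without the keratin-rich libraries, and all but those of Lum and Dcn without any 1 untreated library. Those of Emr1, Myh4, Myh2 and Myl1 were also lost in limma-voom. Without the keratin-rich libraries Myl1 had 5.44 and Pvalb 6.19.

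Divided by these sums, the protease levels of the groups did not overlap except for muscle. The proteases were selected on this contrast, and their group means had a ratio of 5.03. That ratio was 1.55, 1.44 and 1.23 for the fibroblast, macrophage and endothelial sums. Division by such sums can hardly close the gap, so nothing is read from the kept separation. Per 1000 CPM of fibroblast markers, protease CPM were 7.07, 3.30 and 0.372 untreated and 18.3, 8.72 and 7.22 after doxycycline, so doxycycline replicate 3 lay just above untreated replicate 1. Per 1000 CPM of macrophage markers they were 16.8, 9.45 and 0.961 against 52.3, 26.8 and 18.2. Per 1000 CPM of muscle markers the groups overlapped, at 87.4, 15.8 and 4.14 against 23.2, 4.75 and 31.2. Muscle markers were highest in doxycycline replicate 2 and the proteases in doxycycline replicate 1. Skin keratins were high in doxycycline replicate 1 and in untreated replicate 2, whose protease level was below that of untreated replicate 1. Such orders of a few libraries cannot bear on the source of the proteases, and nothing is read from them. The part of these cell types in the protease difference was not tested.

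**Figure D5:**
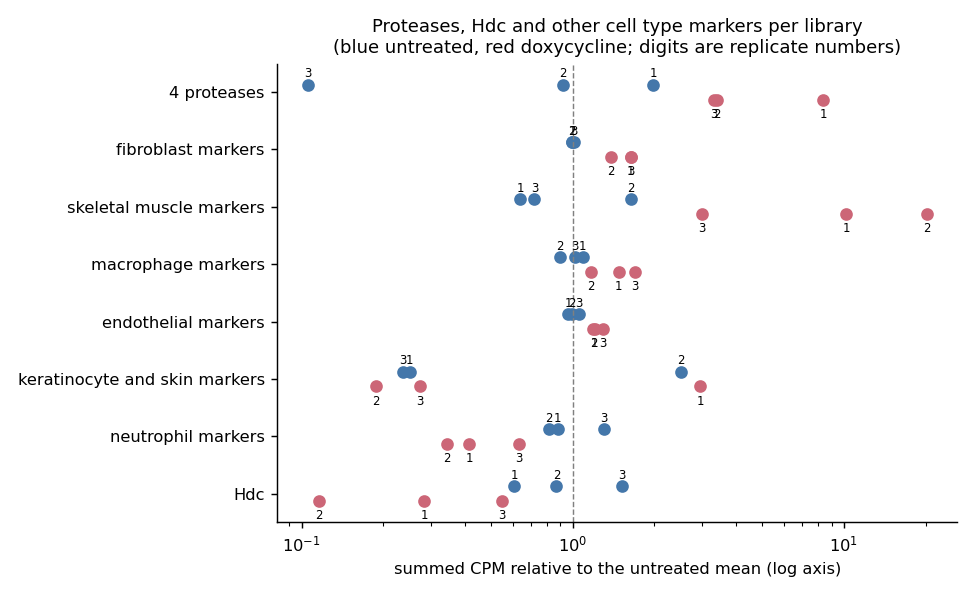
Summed CPM of the 4 proteases and of marker lists, with Hdc at the bottom, in each library relative to the untreated mean of the same row (horizontal log axis; dashed line at 1); blue is untreated, red is doxycycline and digits are replicate numbers. The untreated protease sums run from 0.405 to 7.56 CPM, and Hdc lies on the same side as the neutrophil markers. The full list of connective tissue mast cell markers, whose sums overlapped between the groups, is not shown.

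The genes whose levels most resembled the proteases over the 6 libraries were Itm2a, Serpina3h, Gm1564, Cyp1b1 and Angpt1. Likeness was the root mean square difference between a gene's centred log2 CPM and the mean profile of the 4 proteases, over 14309 genes with a mean of at least 1 CPM. That profile was most extreme in untreated replicate 3, at -3.88, where each protease had at most 4 counts. Itm2a, Serpina3h, Gm1564 and Angpt1 also had at most 4 counts there, so the likeness leans on 1 library near the floor. The root mean square difference is given next. It was 0.859 for Itm2a, a membrane protein gene, and 0.966 for Angpt1, a ligand of the endothelial receptor TIE2, while the proteases themselves lay 0.325 (Cpa3) to 0.643 (Cma1) from the mean they form. Cyp1b1, a cytochrome P450, had 1.74, 2.07 and 0.944 CPM untreated and 19.2, 6.93 and 12.3 CPM after doxycycline.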

How the data were processed

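Frozen tumours gave RNA for TruSeq v2 libraries after Ribo-Zero depletion, per the labels' protocols. The deposited table holds whole-number read counts per gene. The submitters' processing notes name TopHat2 2.0.8, TopHat, HTSeq and build mm9, without their roles. Strand use and the treatment of reads with several matches: not given in the sources used here. The 90 rows without a gene name (0.0361% to 0.0402% of counts) were left out.

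Counts were tested on all named genes with edgeR 4.0.16 in R 4.3.3: filterByExpr (minimum count 10), TMM scaling, robust quasi-likelihood fit, two-sided test, Benjamini-Hochberg adjustment, threshold 0.05. Standard errors are the log2 fold change over the square root of F. Counting intervals are 95% Clopper-Pearson intervals on pooled reads and cover counting error only. The fit was also run on data simulated from its own model, which cannot show how the results depend on single libraries. Alternatives used DESeq2 1.42.0, limma-voom (limma 3.58.1), RLE scaling, no filter, a replicate block and left-out libraries. Exonic lengths and shared 50-base stretches came from GENCODE M21 (GRCm38), not the authors' annotation, and promoters from RefSeq.

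Members and lists were chosen with earlier results of these data known. Genes named are the 9 members, called genes of each list (up to the 4 with the smallest p), the mast cell markers Mrgprb1, Mrgprb2 and Slc18a2, St18, and the 5 most similar profiles. Further list genes (Mcpt1, Mcpt2, Mcpt8, Mcpt9, Cma2, Prss34, Cd200r3, Fcer1g, Il1rl1, Hpgds, Gata2, Mitf, Lyn, Syk, S100a8, S100a9, Cxcr2, Mmp8, Ngp, the melanocyte and hepatoblast genes and the cytokines) were named after their values were seen. The lists of lymphocyte, eosinophil and adipocyte markers had 0 of 1, 0 of 1 and 0 of 2 tested genes called, and the basophil and melanocyte lists 0 of 1 and 0 of 2.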

Additional observations from a re-analysis of the deposited data

How the results depend on the processing

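The members' log2 fold changes kept their sign in all 84 alternative values for the 7 tested, and 68 of these also kept their side of the threshold. The groups did not overlap for most of the 7, so a kept sign with libraries left out tests nothing. With all libraries 1 member was called higher and 1 lower. DESeq2 called 3 higher and 2 lower, leaving out the filter on low counts gave 2 higher (the second is Fcer1a), and leaving out the keratin-rich libraries, chosen after seeing the data, gave 0 and 0, as over all 14905 genes tested in that fit. Leaving out 1 library at a time gave 0 to 2 higher and 0 to 1 lower. For the list genes, 3 higher and 3 lower with all libraries, DESeq2 called 6 higher, limma-voom 0 higher, and the fit without the keratin-rich libraries 0 and 0. Leaving out 1 library gave 0 to 12 higher, the 12 without doxycycline replicate 2, and 0 to 3 lower. The calls over all genes moved likewise: 11 and 12, 27 and 25, and 14 and 13 (higher and lower) without untreated replicates 1, 2 and 3, with 2158 to 2748 at an unadjusted p under 0.05, and 1244 and 866 without doxycycline replicate 2. Over all genes the calls were 421 higher and 323 lower in edgeR, 877 and 790 in DESeq2, 261 and 288 in limma-voom and 215 and 179 with the replicate block.

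No pairing of libraries by replicate number was seen: deviations of same-numbered libraries correlated at -0.0115, -0.069 and 0.0175 across genes. Differently numbered libraries correlated at -0.132 to 0.129. Such values cannot show that no pairing exists. With the replicate number as a block, 2 members were called higher and 0 lower, and 1 list gene higher and 1 lower. The lowest counts limit Fcer1a, Ms4a2 and Mrgprb2, for which 3 counts correspond to 0.188 to 0.251 CPM in 1 library.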
